A study of Caenorhabditis elegans with 8 samples.

Results

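RNA of whole L4 animals was compared between cultures that had gone further and less far in making sperm RNA. The 8 libraries came from 4 strains, 2 libraries per strain, and were selected on their own readout, the mean log2 CPM of the msp- genes. CPM is a gene's share of a library's counts, scaled by edgeR. These genes encode the major sperm proteins. A library with a mean above 6 was called late and the others early. This gave 3 late and 5 early libraries of the 16 libraries in the series.

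The strains were the wild type, mec-7(u278), mbl-1(tm1563) and mec-7(u278) mbl-1(tm1563). All of them carried the insertion uIs115, in which the mec-17 promoter drives a red fluorescent protein in the touch receptor neurons. Animals were bleached, hatched without food, grown on bacteria and collected as L4 larvae, with no treatment and no finer staging given in the labels. The late libraries were mec-7(u278) 1 and both libraries of mec-7(u278) mbl-1(tm1563). The early libraries were both of the wild type, mec-7(u278) 2 and both of mbl-1(tm1563). Every late library thus carried mec-7(u278), and mec-7(u278) was the only strain with a library on each side. For the remaining libraries, culture age and genotype cannot be told apart. Culture age here means progress through L4 as read from msp- RNA, and was not measured in any other way.

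The C. elegans hermaphrodite makes sperm during the L4 stage and then switches its germline to oocytes. In the same hours the L4 animal builds the adult cuticle and sheds that of L4, under a set of transcription factors that oscillate with each moult, and the intestine begins to make yolk. Sperm, oocyte, yolk and moulting genes are therefore known to change during L4. Whole animals were used, so a smaller number of cells of a type and less RNA per cell cannot be told apart.

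Depth was even, at 22507089 to 23180583 gene counts in the 8 libraries. They were not stranded, with 50.8% to 51.3% of counts on the second strand. A read in the overlap of genes on opposite strands was therefore ambiguous and counted for neither gene. Not every named gene with such an overlap is marked below. The library mbl-1(tm1563) 2 stood apart at the early end and mec-7(u278) mbl-1(tm1563) 1 at the late end. The latter held the highest value of 5277 genes and the lowest of 5141. The former held the highest value of 2845 genes and the lowest of 4597.

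The msp- mean was -1.11 in mbl-1(tm1563) 2, 2.56 in WT 1, 4.58 in WT 2, 4.69 in mec-7(u278) 2 and 5.25 in mbl-1(tm1563) 1. It was 6.42 in mec-7(u278) 1, 6.57 in mec-7(u278) mbl-1(tm1563) 2 and 7.28 in mec-7(u278) mbl-1(tm1563) 1. The libraries nearest the threshold were thus mbl-1(tm1563) 1 below it and mec-7(u278) 1 above it. The msp- genes took 0.00125% of all gene counts in mbl-1(tm1563) 2 and 0.725% in mec-7(u278) mbl-1(tm1563) 1. All values below are given in this order of libraries, the early ones first.

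**Figure D1:**
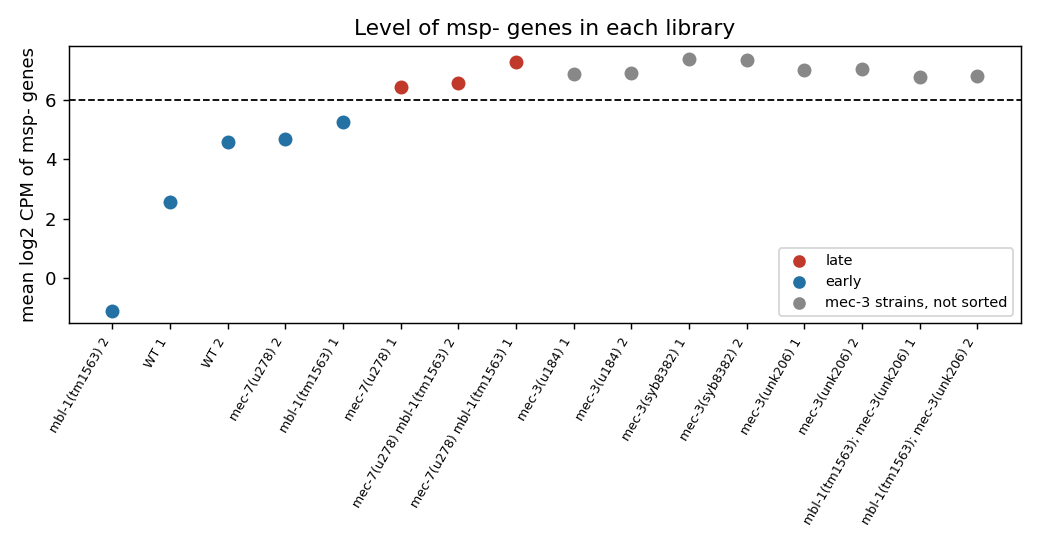
Mean log2 CPM of the msp- genes (y axis) in each library (x axis), with the threshold of 6 as a dashed line, early libraries in blue, late in red and the mec-3 strains, which were not sorted, in grey. The 5 early libraries lie between -1.11 and 5.25 and the 3 late ones between 6.42 and 7.28.

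Of 15573 genes other than msp- that passed the filter on low counts, 3203 (20.6%) were late-high: every late library lay above every early one and the means differed by at least 1 log2 unit. The opposite held for 1982 genes (12.7%), called early-high. The median difference over all genes was -0.05. Because the libraries were sorted by their own RNA, these counts describe the sorting and carry no test. An edgeR quasi-likelihood fit of the same groups put 6054 genes (38.9%) under an adjusted p of 0.05, with 2975 higher and 3079 lower in the late libraries. Since it compares the groups that the sorting made, the edgeR count is a description too and no valid test. That count fell to 0 when WT 1 was left out (7256 at an unadjusted p under 0.05) and to 1773 without mec-7(u278) mbl-1(tm1563) 1. Libraries share strains, and with strain as a block the count was 0 (633 at an unadjusted p under 0.05), in a fit where only the mec-7(u278) pair carries the contrast.

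Sperm genes that the sorting did not use followed the msp- genes. Of 54 measured genes for sperm proteins other than msp-, 50 were late-high and none early-high, with a median difference of 3.04. Between the libraries of mec-7(u278) the median of this list was 1.56. The nspd- genes encode small sperm peptides. For nspd-2 the early libraries held 0.199, 3.64, 10.9, 25.9 and 22.2 CPM and the late ones 110, 97.5 and 198 CPM, a difference of 4.46 ± 1.24 (log2, SE). The groups did not overlap, and the lowest value was that of mbl-1(tm1563) 2. The difference of nspd-1 was 4.14 ± 1.41 and that of nspd-3 was 4.33 ± 0.94. The family shares sequence, and reads that map to several places were not counted.

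The genes that set the sperm fate were less uniform. Of 16 measured, 9 were late-high and 1 was early-high, with a median of 1.24. The sex-determination gene fem-3 held 1.69, 3.59, 5.41, 7.15 and 6.72 CPM in the early libraries and 15.9, 19.6 and 69.5 CPM in the late ones (2.65 ± 0.76). The late values all lay above the early ones and that of mec-7(u278) mbl-1(tm1563) 1 was far above the other two. The difference of fog-2, which lets the hermaphrodite make sperm, was 2.52 ± 0.59, and that of cpb-2 was 2.40 ± 0.996. The spermatocyte transcription factor spe-44 held 14.9, 14.96 and 15.1 CPM in the late libraries against 0.497 to 9.16 CPM in the early ones. The early-high member, named after its value was seen, was tra-1 at -1.29, the transcription factor at the end of the sex-determination pathway.

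Oocyte genes were higher in the late libraries by about as much as sperm genes. Of 31 measured genes for oogenesis and the eggshell, 29 were late-high and none early-high, with a median of 3.12. The yolk receptor rme-2 held 1.44, 7.43, 35.8, 47.5 and 55.6 CPM in the early libraries and 90.1, 213 and 243 CPM in the late ones (3.37 ± 1.09). It increased with every library in the order. The germ granule gene meg-1 held 0.0497 to 5.57 CPM in the early libraries and 11.995, 33.8 and 58.5 CPM in the late ones (4.45 ± 1.36). The eggshell gene cpg-3 held 0.646, 2.54, 16.3, 14.3 and 20.98 CPM early and 51.5, 69.998 and 197 CPM late (3.84 ± 1.10), and overlaps a gene on the opposite strand. The same holds for nos-2, a translational regulator of germ cells, which differed by 4.41 ± 1.35.

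Of 24 measured genes for germ granules and meiosis, 22 were late-high, with a median of 1.87. The synaptonemal complex gene syp-2 held 1.34, 4.39, 5.02, 5.25 and 7.59 CPM early and 16.8, 16.111 and 45.2 CPM late (2.46 ± 0.64). The meiotic chromosome axis gene htp-2 differed by 2.35 ± 0.77. The cell cycle list was mixed, with 10 of 25 late-high, 1 early-high and a median of 0.88. Its largest differences were those of the B-type cyclins cyb-2.2 (3.50 ± 1.01), cyb-2.1 (3.41 ± 0.88) and cyb-1 (2.13 ± 0.48). The early-high member, named after its value was seen, was the D-type cyclin cyd-1 at -1.94 ± 0.64.

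**Figure D2:**
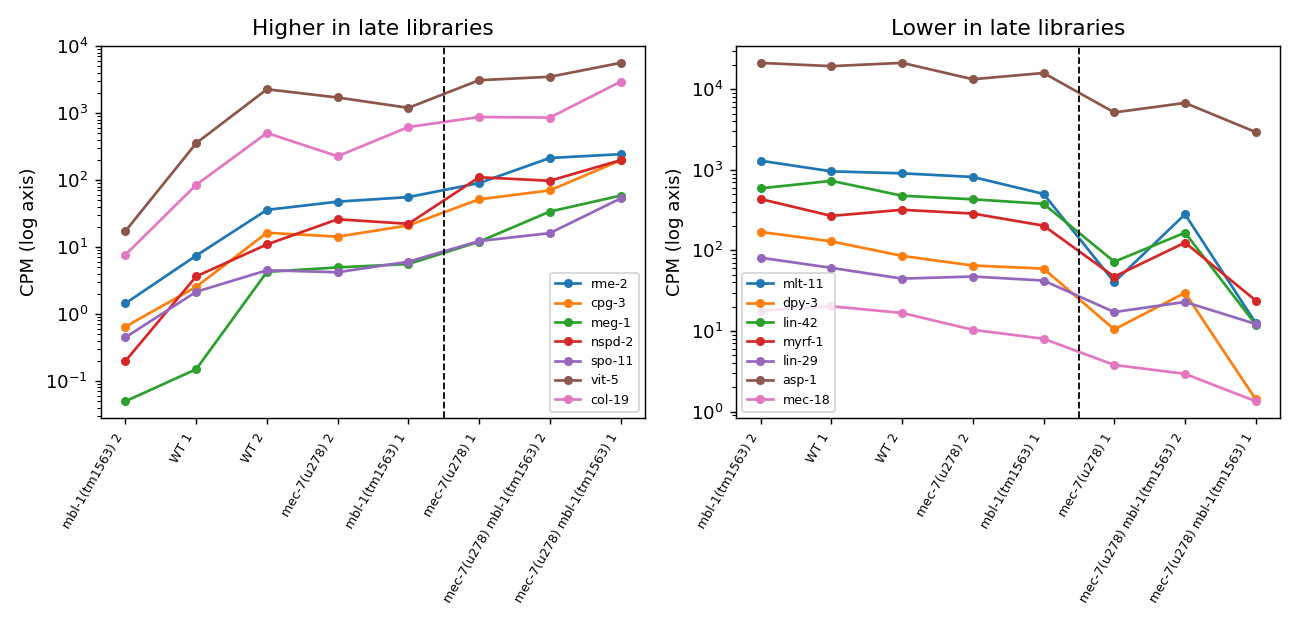
CPM on a log axis (y) of 7 genes higher and 7 genes lower in the late libraries, with the 8 libraries on the x axis in order of msp- level and the threshold as a dashed line. The yolk receptor rme-2 goes from 1.44 to 243 CPM, while the moulting gene mlt-11 goes from 1301 to 12.6 CPM and has a higher value in mec-7(u278) mbl-1(tm1563) 2 than in the other late libraries.

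Yolk genes were higher in the late libraries too. The 6 vitellogenins, which encode yolk proteins made by the intestine, together held 396 to 16110 CPM in the early libraries and 17687 to 34401 CPM in the late ones. For vit-2 the early values were 62.4, 1315, 3662, 3433 and 4108 CPM and the late ones 4956, 6343 and 10501 CPM (2.37 ± 1.19). For vit-5 they were 17.3, 355, 2265, 1708 and 1196 CPM early and 3095, 3480 and 5619 CPM late (2.999 ± 1.31). The values of mbl-1(tm1563) 2 lay far below the remaining early libraries, which lowers the early means. The median of the list was 2.41 between the groups and 0.59 between the libraries of mec-7(u278). Of the 6 genes, 4 were late-high, and vit-3 and vit-6 were not. The vit- genes share sequence, so their individual counts are less certain than their sum.

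Other intestinal genes went the opposite way. Of 12 intestinal markers, 7 were early-high and none late-high, with a median of -1.11, and their summed level was 21843 to 30156 CPM early and 4917 to 11358 CPM late. The aspartic protease asp-1 held 21298, 19408, 21331, 13352 and 15969 CPM early and 5165, 6787 and 2946 CPM late (-1.94 ± 0.38). The intestinal GATA factor elt-2 held 51.97 to 81.2 CPM early and 31.04, 30.1 and 14.1 CPM late (-1.48 ± 0.39). The groups did not overlap for either gene.

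Moulting genes were lower in the late libraries. Of 25 genes of moulting and the apical matrix, 18 were early-high and none late-high, with a median of -2.38. The protease inhibitor gene mlt-11 had the largest decrease of the named genes. It held 1301, 959, 906, 816 and 503 CPM early and 40.4, 281 and 12.6 CPM late (-4.03 ± 1.32). The fibrillin-like fbn-1 differed by -3.77 ± 1.23 and the lipocalin lpr-3 by -3.42 ± 1.36, and both overlap a gene on the opposite strand. In all 3 genes mec-7(u278) mbl-1(tm1563) 2 was the highest late library. Without mec-7(u278) mbl-1(tm1563) 1 the median of the list was -1.26.

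The furrow collagens, which form the annular furrows of the cuticle, were early-high in 6 of 6 genes, with a median of -2.96. The collagen dpy-3 held 170, 130, 85.5, 65.0 and 59.5 CPM early and 10.5, 29.8 and 1.41 CPM late (-3.59 ± 1.30). Without mec-7(u278) mbl-1(tm1563) 1 the list's median was -1.85. Over all 141 measured cuticle collagens, 49 were early-high and 19 late-high, with a median of -1.18, which was -0.35 without that library and 0.01 between the libraries of mec-7(u278). Among the late-high ones was col-19, an adult collagen, with 7.66, 84.7, 504, 227 and 619 CPM early and 873, 856 and 2941 CPM late (3.26 ± 1.29). The strut collagen bli-1 went the other way, at 398 to 879 CPM early and 123, 218 and 14.2 CPM late (-2.79 ± 1.22). Cuticle collagens thus divided into genes on each side.

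Regulators of the moult were lower as well, with 9 of 10 early-high and a median of -1.78. The period homolog lin-42 held 590, 731, 478, 431 and 379 CPM early and 72.4, 166 and 12 CPM late (-3.27 ± 1.13). The transcription factor myrf-1 held 203 to 435 CPM early and 47.2, 125 and 23.9 CPM late (-2.49 ± 0.71). The exception was nhr-23, a nuclear receptor of the moult cycle, whose groups overlapped at 37.1 to 89.9 CPM early and 31.7, 51.4 and 38.5 CPM late (-0.46 ± 0.31). Of 11 heterochronic genes, which time larval stages, 7 were early-high with a median of -1.06. Among them lin-29 held 81.2, 60.8, 44.7, 47.4 and 42.3 CPM early and 17.2, 22.9 and 12.2 CPM late (-1.66 ± 0.31). Of 67 hedgehog-related and Patched-related genes, 26 were early-high and 1 late-high. Their median of -1.26 was -0.60 without mec-7(u278) mbl-1(tm1563) 1.

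**Figure D3:**
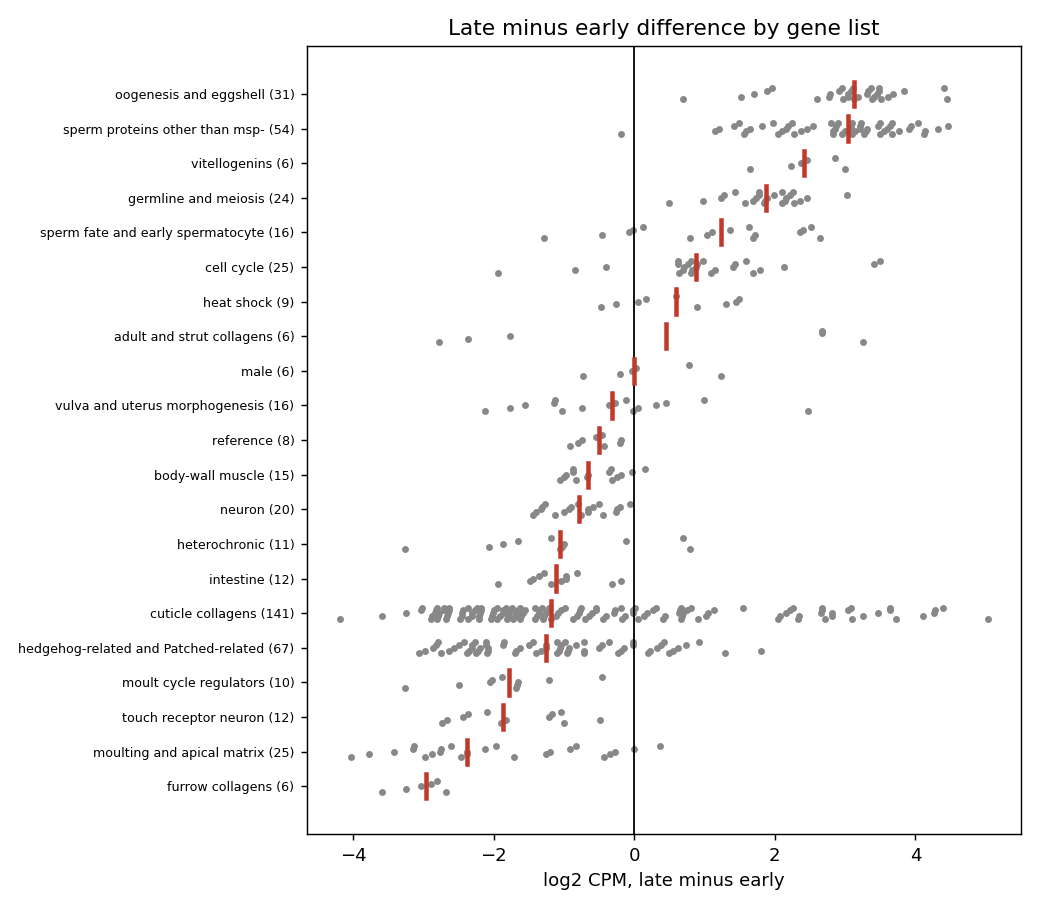
Late minus early log2 difference (x axis) of every measured gene (grey) in each gene list (y axis, number of genes in brackets), with the median in red. The medians go from -2.96 for the furrow collagens to 3.12 for oogenesis and the eggshell, and the cuticle collagens spread over both sides.

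The touch receptor neuron genes, which the study's strains were made to examine, were also lower. Of 12 measured, 9 were early-high and none late-high, with a median of -1.86. The beta-tubulin mec-7 held 59.3, 205, 139, 95.5 and 29.5 CPM early and 43.7, 11.3 and 4.24 CPM late (-2.74 ± 1.08), and its groups overlapped. The tubulin acetyltransferase gene mec-17 held 28.8, 57.4, 37.9, 22.7 and 17.1 CPM early and 14.1, 4.96 and 1.41 CPM late (-2.66 ± 0.98). The alpha-tubulin mec-12 differed by -2.37 ± 0.71. The lowest values of all 3 genes were in mec-7(u278) mbl-1(tm1563), and between the libraries of mec-7(u278) the median of the list was -0.67. Every late library also carried mec-7(u278), a mutation of the mec-7 gene itself. The share of mec-7(u278), of mbl-1(tm1563) and of culture age in these differences cannot be told apart. The selector gene mec-3 held 1.57 to 3.68 CPM early and 0.975, 1.23 and 1.05 CPM late (-1.05 ± 0.22). The splicing regulator mbl-1 itself held 45.8 to 65.3 CPM early and 34.0, 30.4 and 26.6 CPM late (-0.88 ± 0.13), counted over the whole gene, so that it does not check the tm1563 allele.

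Broader tissues had smaller medians between the groups than the touch receptor neuron list. Of 20 neuronal genes, 6 were early-high, beside 12.7% of all genes, with a median of -0.79. Of 15 body-wall muscle genes, 1 was early-high, with a median of -0.66. Between the libraries of mec-7(u278) the order differed. There the medians were -0.92 for body-wall muscle, -0.55 for neuronal genes and -0.67 for touch receptor neuron genes. Of 8 reference genes none was on either list, but their median was -0.50, with tbb-2 at -0.81 ± 0.14 and ama-1 at -0.92 ± 0.26. Heat shock genes overlapped in 9 of 9 cases. Of 12 male genes 6 were below the filter, among them the male neuron gene pkd-2, and none of the other 6 was on either list.

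Among late-high genes averaging at least 10 CPM in the late libraries, the 10 largest differences included several known only by a sequence name. Over all genes, without these limits, differences went from -4.20 to 7.06. W02D9.7 held 0, 0.0499, 4.25, 4.82 and 5.43 CPM early and 20.1, 31.4 and 126 CPM late. The uterine lumen gene ule-5 held 0.398, 0.249, 28.0, 24.6 and 42.7 CPM early and 103, 126 and 443 CPM late (5.04 ± 1.68), and ule-1 differed by 5.08 ± 1.62. The others were Y57G11B.5, K04C1.5, Y62H9A.5, ZK813.7, spex-3, ZK813.2 and the collagen col-143. All 10 were highest in mec-7(u278) mbl-1(tm1563) 1 and under 1 CPM in both mbl-1(tm1563) 2 and WT 1. Since several are at or near 0 there, the size of these differences depends on the prior count of 2. Downward, the remaining genes of the first 10 were clec-52, Y39A1A.9, cdh-10, Y65B4BL.1, bah-1 and C09F9.2, between -3.71 and -3.41.

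The X chromosome stood apart from the autosomes in this description. Of 2207 measured X-linked genes 9.24% were late-high and 23.9% early-high. On the autosomes the late-high share lay between 18.2% on V and 26.2% on IV, and the early-high share between 8.33% on I and 13.9% on V. Of 548 measured pseudogenes, 219 were late-high and 29 early-high, beside 20.6% and 12.7% of all genes.

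**Figure D4:**
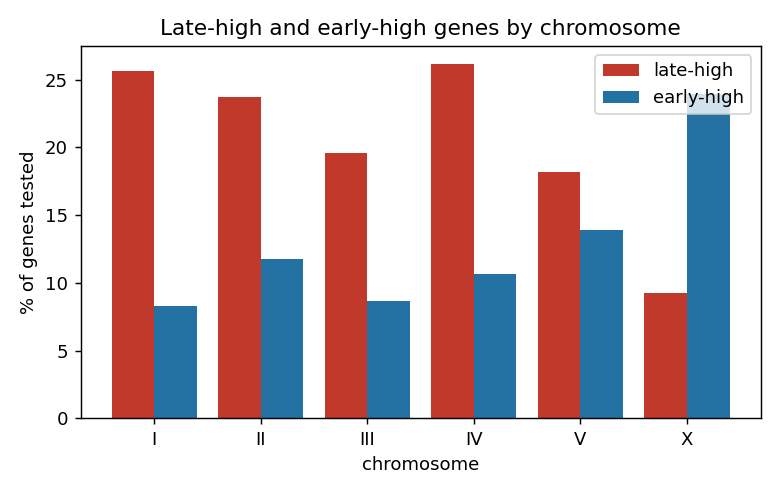
Share of the measured genes on each chromosome (x axis) that were late-high (red) or early-high (blue), in percent (y axis, from 0). The X chromosome has 9.24% late-high and 23.9% early-high genes, and each autosome has more late-high than early-high genes.

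Within a strain, the library with more msp- RNA was set against the other. Between the mec-7(u278) libraries, the only pair that spans the threshold, the median was 1.27 over the late-high genes, -0.99 over the early-high genes and -0.05 over all genes. These libraries also chose the genes, so the values are no test. The oogenesis median was 1.18 there and the furrow collagen median -2.16. Between the mbl-1(tm1563) libraries, with the msp- means 6.36 apart, the oogenesis median was 4.55 and the furrow collagen median -1.43. For mec-7(u278) mbl-1(tm1563), whose libraries lay only 0.71 apart, these medians were 0.38 and -3.88. Between the wild type libraries, 2.02 apart, the oogenesis median was 2.24 but the furrow collagen median only -0.45. There the median was 0.72 over the late-high genes, -0.07 over the early-high genes and 0.04 over the moult cycle regulators. The wild type pair was further apart in msp- mean than the mec-7(u278) pair. Early-high genes were chosen as lower in mec-7(u278) 1 than in mec-7(u278) 2, while both wild type libraries were early. The early-high medians of these pairs are thus not comparable.

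Libraries that the sorting did not use were tested next. The 4 mec-3 strains, with 2 libraries each, all lay above the threshold, at msp- means of 6.79 to 7.40, and their libraries were stranded. A slope on the msp- mean with strain terms called 0 of 15402 genes in edgeR (0%), with 640 at an unadjusted p under 0.05, and 6 in DESeq2. Libraries of a strain differed by at most 0.042 in msp- mean, so this fit had almost no range to work on. After this was seen, strains with the same reporter insertion were compared, the one with more msp- RNA against the other. The alleles differ too, so culture age and genotype cannot be told apart in either pair. Libraries of a sorted strain lay 0.71 to 6.36 apart in msp- mean. The SE and p-values of these pairs thus rest on a narrower spread in msp- level.

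In mec-3(syb8382) against mec-3(u184), both with uIs134 and with msp- means of 7.29 and 6.84 in their own fit, 23.2% of 14868 genes were higher and 22.7% lower at an adjusted p under 0.05 (edgeR). Of the late-high genes measured, 1308 of 3139 (41.7%) rose and 88 fell. Of the early-high genes, 1269 of 1827 (69.5%) fell and 9 rose. Oogenesis genes rose in 30 of 31 cases, germline and meiosis genes in 24 of 24, and furrow collagens fell in 6 of 6. The yolk receptor rme-2 held 401 and 390 CPM against 216 and 228 CPM (log2 0.84 ± 0.07, edgeR adjusted p = 0.000726). The moulting gene mlt-11 held 38.4 and 19.8 CPM against 94.8 and 111 CPM (-1.82 ± 0.27, edgeR adjusted p = 0.00296). None of the 6 vitellogenins passed the test, and intestinal markers fell in 12 of 12.

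In mec-3(unk206) against mbl-1(tm1563); mec-3(unk206), both with uIs115 and with msp- means of 7.103 and 6.88, 21.9% of 15068 genes were higher and 14.2% lower. Of the late-high genes, 1185 of 3144 (37.7%) rose and 749 (23.8%) fell. Of the early-high genes, 135 of 1840 (7.34%) fell, fewer than the 595 (32.3%) that rose. Oogenesis genes fell in 28 of 31 cases, with rme-2 at 271 and 216 CPM against 470 and 533 CPM (-1.04 ± 0.15, edgeR adjusted p = 0.000111). Vitellogenins rose in 6 of 6 and intestinal markers in 10 of 12, while furrow collagens fell in 5 of 6. Among genes of the touch receptor neurons, mec-7 held 41.4 and 37.8 CPM against 9.34 and 8.67 CPM (2.14 ± 0.17, edgeR adjusted p = 7.13e-07).

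The pairs differed from each other. In one edgeR fit over the 8 libraries, the difference between the pairs passed the test for 3642 genes (23.6%) in the direction of mec-3(syb8382) and for 4535 (29.4%) in the other. All 31 oogenesis genes were among the former, and 11 of 12 intestinal markers and 1191 of 1874 early-high genes among the latter. Sperm genes other than msp- rose in 22 of 53 cases in the first pair and 23 of 53 in the second, with 1 lower in each. Each pair was ordered by its own msp- level, so the direction of these sperm genes is no separate test.

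**Figure D5:**
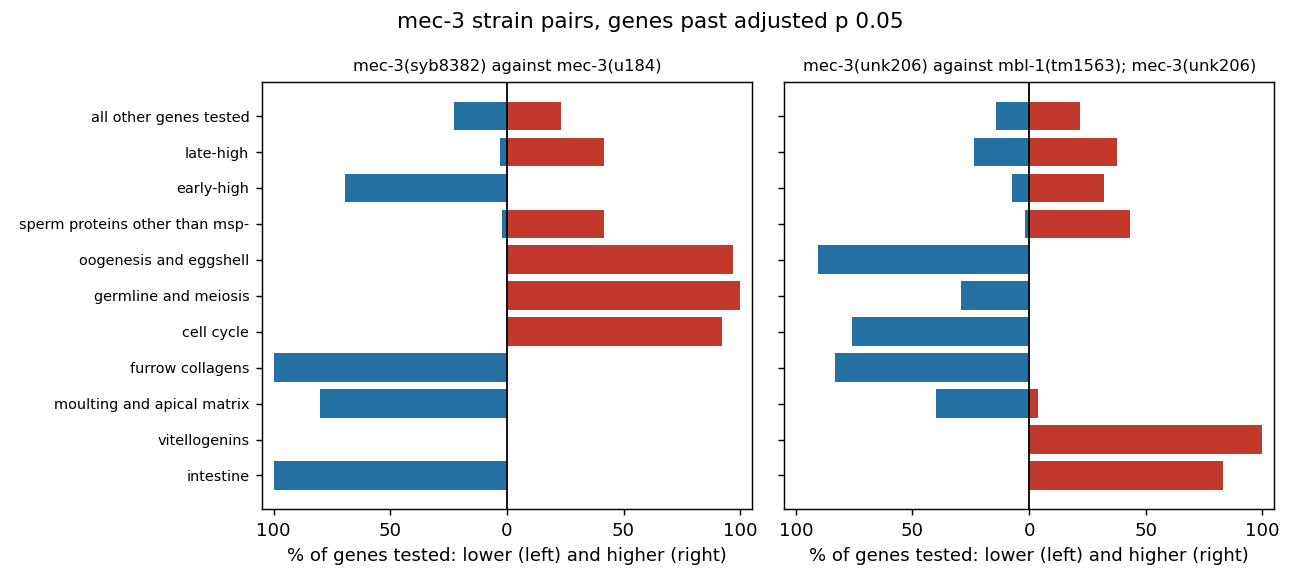
Percent of measured genes in each list (y axis) that were lower (blue, left) or higher (red, right) in the strain with more msp- RNA, for both mec-3 strain pairs, at an adjusted p under 0.05 in edgeR. Oogenesis genes rose in 30 of 31 cases in the left pair and fell in 28 of 31 in the right pair, while furrow collagens fell in both.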

How the data were processed

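The authors aligned paired reads of whole L4 animals to WBcel235 with STAR 2.7.10 and deposited, per library, raw counts per gene as whole numbers, unstranded and for each strand. Rows that name no gene were left out: 1.09% to 2.86% of reads were unmapped, 2.47% to 4.24% mapped to several places, 0.230% to 0.505% lay in no gene and 1.53% to 1.91% were ambiguous. The unstranded column was used for the 8 sorted libraries and the second strand for the mec-3 strains. Counts were filtered with filterByExpr by strain, scaled by TMM and expressed as log2 CPM with a prior count of 2 (edgeR 4.0.16, R 4.3.3). Of 46778 genes, 43818 had a symbol, and 29 of 31 msp- genes passed the filter. An SE between late and early libraries is that of the difference of group means over libraries, used in place of the SE of the edgeR fit that had been planned. The study's methods give 2 biological replicates per strain, numbered in the library names only. Tests used edgeR quasi-likelihood fits with Benjamini-Hochberg adjustment over all genes measured.

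The sorting rule, the members and the 21 gene lists were chosen with earlier results of these data known. Named genes were the 10 with the largest difference in each direction among late-high and early-high genes of at least 10 CPM in the higher group, up to 3 per list by size, and 12 fixed genes. Exceptions are said in the text. The comparison of mec-3 strain pairs was added after the data were seen. Promoter motifs were not analysed here. The fits were tested on simulated data. Alternatives were RLE factors, DESeq2 1.42.0, other filters, prior counts, thresholds and count columns, blocks on strain or library number, and leaving out libraries or strains.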

Additional observations from a re-analysis of the deposited data

Results flagged for a closer look

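Of 86 named genes, 9 had an early library far from the other 4 on the log2 CPM scale. Chance alone gives about 1 in 20 groups for independent values from like libraries. Here the genes move together and the early libraries differ in strain and msp- level, so the 9 cannot be set against that rate. Library mbl-1(tm1563) 2 lay apart below for vit-2 (5.97), vit-4 (2.04), vit-3 (2.37), spe-44 (-0.77) and cpb-2 (-2.42) and above for deb-1 (8.26), a muscle attachment gene. Library mec-7(u278) 2 lay apart below for bah-1 (3.01) and clec-52 (4.67), and mbl-1(tm1563) 1 below for egl-13 (5.23).

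The difference between the 2 mec-3 strain pairs passed the edgeR test for 31 oogenesis genes and 24 of 25 cell cycle genes, more positive in mec-3(syb8382) against mec-3(u184). It passed for 11 intestinal markers and 5 vitellogenins, more positive in the other pair. The late-high genes went both ways, with 1185 of 3165 more positive in the first pair and 928 in the second. Of 1874 early-high genes 16 were more positive in the first pair and 1191 in the second. Over all genes the shares were 23.6% and 29.4%.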

How the results depend on the processing

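All 69 named genes that were late-high or early-high kept their direction under every alternative that measured them, which was 51 of them with at least 10 counts in every library. Each was chosen with all late libraries beyond all early ones. Leaving out libraries or blocking on strain could thus hardly reverse their direction, and is no support for it. The late-high count was 1571 and the early-high count 1191 with at least 10 counts in every library. With a threshold of 5 the early-high count was 749 and with 7 it was 3320. The edgeR count was 0 at a threshold of 5 (6126 at an unadjusted p under 0.05), 763 at 7 and 0 with strain as a block (633 unadjusted), where only the mec-7(u278) pair carries the contrast. It was 7925 with DESeq2 and, added later, 6898 with edgeR's bias-adjusted fit. With all libraries of one strain left out it was 0 without the wild type (5164 unadjusted), 1985 without mec-7(u278) and 0 without mec-7(u278) mbl-1(tm1563) (3764 unadjusted). The median of the cuticle collagens was 0.0092 with strain as a block. The causes were not tested.

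With a replicate block on the library number, the edgeR count was 3032. Over 6 pairs of strains, the correlation across genes of the difference between libraries 1 and 2 ranged from -0.489 to 0.648. It was negative between the wild type and each other strain, and 0.279 to 0.648 among the others. Library 2 had more msp- RNA in the wild type and library 1 in the others. These correlations therefore cannot tell whether the number pairs the libraries.

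Leaving out 1 library gave 3079 to 3703 late-high genes, 1392 to 2686 early-high genes and 0 to 6185 edgeR calls, with 0 without WT 1 (7256 unadjusted), 2804 without WT 2 and 1773 without mec-7(u278) mbl-1(tm1563) 1. It kept 19 to 21 list medians in direction, and the 69 named genes, for which this was near certain from how they were chosen. In the mec-3 strains the slope called 0 genes in each case, 6 with DESeq2 and 2 without strain terms. In mec-3(syb8382) against mec-3(u184) it left 894 to 1316 late-high genes higher and 785 to 1240 early-high genes lower, the fewest without mec-3(u184) 2. In the other pair it left 919 to 1147 higher and 66 to 145 lower, with 66 without mbl-1(tm1563); mec-3(unk206) 2, 68 without mec-3(unk206) 2 and 69 with no filter.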

Other observations

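Some genes were highest in the middle of the library order. Of 15573 genes, 995 were at least 1 log2 unit higher in a middle library than in both mbl-1(tm1563) 2 and mec-7(u278) mbl-1(tm1563) 1. They were chosen by their values, so they are a description. The gene abu-1, named for activation in a blocked unfolded protein response, held 1.04, 4.79, 11.9, 5.15 and 125 CPM in the early libraries and 34.9, 20.99 and 1.20 CPM in the late ones, with its highest value in mbl-1(tm1563) 1. The cytochrome P450 gene cyp-35B2 held 33.7 CPM in mec-7(u278) 2 and 14.01 CPM in mec-7(u278) mbl-1(tm1563) 2, and under 1 CPM in the wild type and both mbl-1(tm1563) libraries.

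Some families that share a symbol are given as examples beside all genes measured, of which 20.6% were late-high and 12.7% early-high. They were not among the planned lists. Families left out included some with larger shares, such as fipr- with 12 of 16 late-high and asp- with 9 of 12 early-high. Of 188 measured nhr- genes (nuclear hormone receptors), 49 were early-high and 2 late-high. Of 54 ttr- genes (transthyretin-related), 21 were late-high and none early-high. Of 35 his- genes (histones), 15 were early-high and 4 late-high. Of 40 mrpl- and 29 mrps- genes (mitochondrial ribosome), none was on either list.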
